A study of Mus musculus with 8 samples.

Results

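The 10 genes described here belong to the Nrf2 antioxidant response. They were chosen by name, as the genes of the deposited expression table whose symbol equals Nfe2l2, Keap1, Gclc, Gclm, Gsr, Txnrd1, Prdx1, Srxn1, Hmox1 or Nqo1, and each of the 10 was found among the 27179 genes of the table. Nrf2, the product of Nfe2l2, is a transcription factor that Keap1 holds in the cytoplasm and passes to a ubiquitin ligase for degradation. Oxidants and reactive metals modify cysteines of Keap1, after which Nrf2 accumulates, pairs with small Maf proteins and switches on genes for glutathione synthesis, thioredoxin recycling, peroxide removal, heme breakdown and quinone reduction. In T cells, stimulation through the receptor raises the production of reactive oxygen species, and glutathione is needed for growth and division after activation. Nrf2 is regulated largely through the stability of the protein, which RNA sequencing does not measure.

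The cells came from the spleens of mice of the strain C.Cg-Foxp3tm2Tch/J, aged 8 weeks, which carry a reporter allele at Foxp3. Their parents, males and females, drank water with 10 ppm CdCl2 or unspiked water while mating, the females until birth, and clean water was given within 12 hours of delivery. CD4+ T cells were enriched by negative selection, purified by sorting and either lysed unstimulated (0 hours) or cultured for 16 hours with beads carrying anti-CD3 and anti-CD28, which mimic antigen and costimulation. The 8 libraries form 4 groups of 2, numbered 6 and 7 in each: unstimulated and stimulated cells of control offspring, and unstimulated and stimulated cells of offspring of Cd-exposed parents, called Cd offspring. Stimulated and unstimulated cells differ in culture as well as in stimulation, and these cannot be told apart. The sex of the mice and whether animals were pooled are not given in the labels.

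Levels are given as RPKM, reads corrected for the length of the transcript and the depth of the library, so that levels of different genes are compared per length. Reads counted on genes, worked out from the table as described under the methods, came to 17985243 and 16299663 for unstimulated control offspring and 15542732 and 19449725 for stimulated control offspring. For Cd offspring the totals were 19419451 and 20538306 without and 21987821 and 25486791 with stimulation. Differences are given as log2 fold changes of RPKM + 0.1, a scale that understates the change of genes with low levels. They were tested with limma over the 12605 genes with a mean of at least 0.5 RPKM, with p values adjusted over all of these. Stimulation was called at an adjusted p under 0.01 with a change of more than 2-fold, and also counted at an adjusted p under 0.05 at any fold. Cd comparisons were called at an adjusted p under 0.05. The study treats each litter as a separate exposure and biological replicate, but the labels do not tie the libraries to litters. Nothing in the labels says that the replicates were separate animals, so p measures the spread between these libraries, which may be technical. An exact permutation test of 2 against 2 libraries cannot give a p below 0.333 (two-sided) and was not used.

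The libraries carried the markers of CD4+ T cells. The 7 T cell genes listed, Cd3e, Cd4 and Lck among them, were all detected, with summed levels of 2298, 2265, 2141 and 2197 RPKM in unstimulated and 1481, 1492, 1517 and 1501 RPKM in stimulated libraries. The most abundant by mean level was Cd3e, at 306 to 464 RPKM, while Cd3g was at 204 to 479 RPKM. The sum of 6 activation genes, Il2ra, Cd69, Il2, Myc, Irf4 and Tnfrsf4, was 153 to 204 RPKM in the 4 unstimulated and 1411 to 1524 RPKM in the 4 stimulated libraries. Before stimulation it was 204 and 183 RPKM in control and 169 and 153 RPKM in Cd offspring. Of this, Cd69 made up 156 and 136 RPKM in control and 116 and 106 RPKM in Cd offspring. Cd79a, a gene of B cells, lay between 2.87 and 4.73 RPKM. Of 10 macrophage and monocyte genes, Cd14, C1qb and Spic were at 0 in all libraries. Their sum was 1.90 to 2.06 RPKM in unstimulated and 0.439 to 0.753 RPKM in stimulated libraries. Itgam, the most abundant, was at 1.56 to 1.85 RPKM in unstimulated and 0.251 to 0.398 RPKM in stimulated libraries. The sum of 4 genes of CD8 T and NK cells was 12.9 to 15.1 RPKM in unstimulated and 10.5 to 12.1 RPKM in stimulated libraries. Cd8b1 was the most abundant at 9.40 to 11.7 RPKM, while Cd8a was at 0.0581 to 0.160 RPKM and Ncr1 at 0 to 0.0311 RPKM. The fall of the sum came from Klrb1c, an NK cell gene, with log2 fold changes of -3.83 in control and -3.62 in Cd offspring, against 0.13 and 0.14 for Cd8b1. Hba-a1, Hba-a2, Ppbp and Pf4, markers of red cells and platelets, were at 0 in all libraries, and Alas2 reached 1.72 RPKM. Foxp3, the factor of regulatory T cells, was at 4.48 to 7.69 RPKM. For RNA sequencing the study describes the cells of control offspring as lacking CD25, and for its qPCR those of both offspring groups. Such a gate removes most regulatory T cells, while the labels give only CD4. The part of these other cells in the levels below was not tested.

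The 10 genes covered a wide range of levels. In unstimulated cells of control offspring, Prdx1 was the highest at 73.3 ± 1.29 RPKM (mean ± SD, n = 2), followed by Nfe2l2 at 36.8 ± 0.932, Txnrd1 at 20.4 ± 0.0967, Gclc at 16.2 ± 0.123 and Keap1 at 14.9 ± 0.969 RPKM. Gsr at 13.2 ± 0.381 and Gclm at 12.5 ± 0.846 RPKM came next and overlapped in their libraries. Far below them were Hmox1 at 1.16 ± 0.102, Nqo1 at 0.192 ± 0.12 and Srxn1 at 0.112 ± 0.0241 RPKM, of which Nqo1 and Srxn1 overlapped. The order in unstimulated cells of Cd offspring was the same apart from Gsr, at 13.9 ± 0.205 RPKM, and Keap1, at 13.8 ± 0.782 RPKM, which overlapped. After stimulation Prdx1 remained at the top, with 191 ± 3.06 RPKM in control and 187 ± 1.57 RPKM in Cd offspring, and Txnrd1 came after it. Nfe2l2 moved from rank 2 to rank 4 in control offspring, overlapping Gsr, and to rank 6 in Cd offspring, overlapping Gclm. Srxn1 was the lowest in all 4 groups. Depth followed level: Prdx1 rested on 1715 to 6725 reads a library, Hmox1 on 19 to 65, Nqo1 on 3 to 49 and Srxn1 on 4 to 28.

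**Figure D1:**
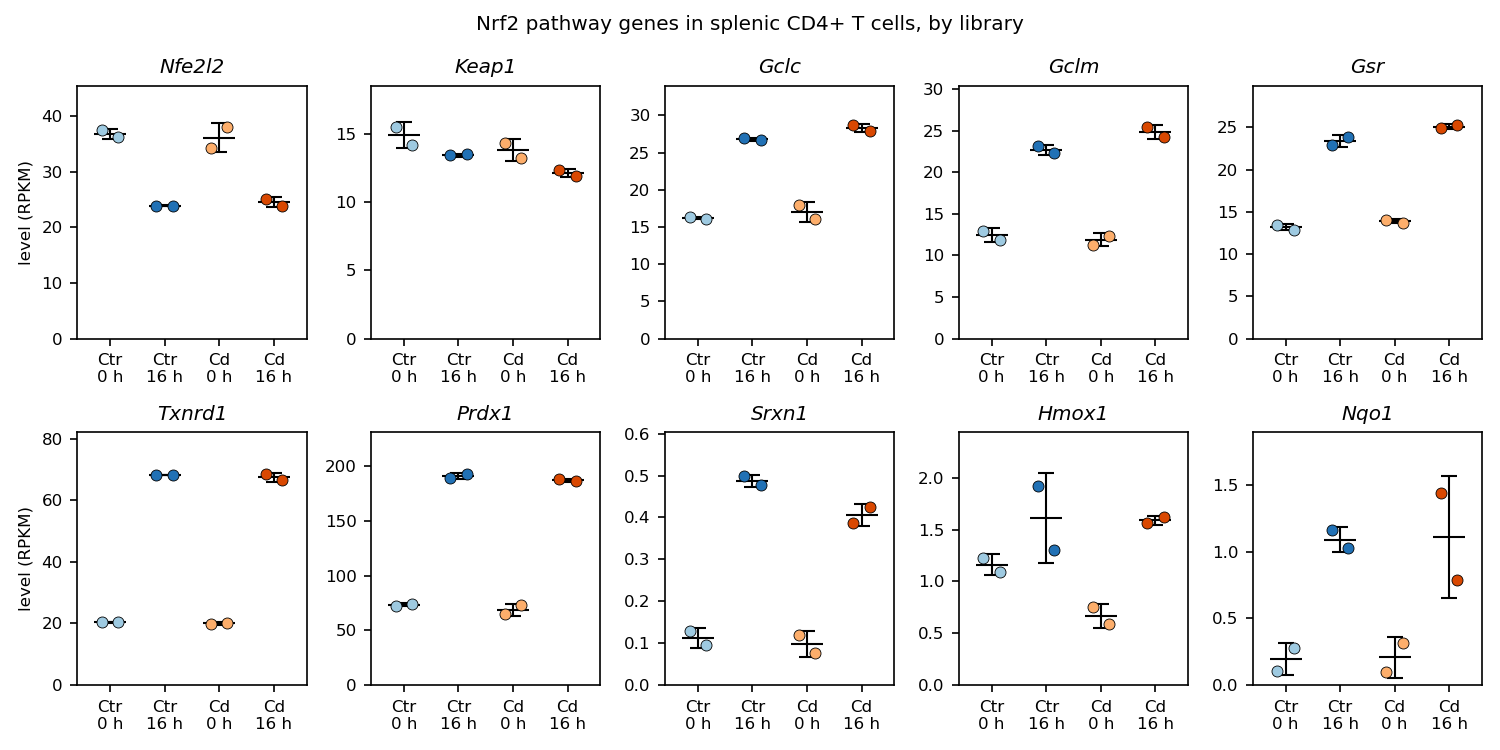
Level (RPKM, axes from 0) of the 10 genes in the 8 libraries, with control (Ctr) and Cd offspring at 0 and 16 hours of stimulation; dots are libraries and bars the mean ± SD of 2 libraries. Txnrd1 lies at 19.8 to 20.5 RPKM in unstimulated and 66.5 to 68.4 RPKM in stimulated libraries, while Nfe2l2 lies at 34.2 to 38.0 and 23.8 to 25.1 RPKM.

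After 16 hours of stimulation, RNA of Gclc, Gclm, Gsr, Txnrd1 and Prdx1 was higher in control and in Cd offspring. RNA of Nfe2l2, the gene for Nrf2 itself, was lower in both. In control offspring 3 of the 9 genes tested, Nqo1, Txnrd1 and Prdx1, were higher by the rule of more than 2-fold, against 11.5% of all genes tested. Nqo1, in this and the other counts of higher genes, passed the filter for testing only through its stimulated libraries. With a filter at 1 RPKM it was not tested, and the count was 2. By the same rule 0 of 9 were lower with limma and 0 with limma's voom on the recovered reads, against 7.17% of all genes, while 7 of 9 had an unadjusted p under 0.05 in either direction (8542 of all 12605 genes). At an adjusted p under 0.05, limma called 6 of 9 higher (36.9% of all genes; 5 with the filter at 1 RPKM) and 1 of 9, Nfe2l2, lower (27.8% of all genes). In Cd offspring 5 of 9, Hmox1, Nqo1, Gclm, Txnrd1 and Prdx1, were higher by more than 2-fold (4 without Nqo1, with the filter at 1 RPKM), against 11.4% of all genes tested, and 0 of 9 were lower with limma and with voom (7.24% of all genes), with an unadjusted p under 0.05 in 9 of 9 (8702 of all 12605 genes). At an adjusted p under 0.05, limma called 7 of 9 higher (36.5% of all genes; 6 with the filter at 1 RPKM) and 1 of 9, again Nfe2l2, lower (29.4% of all genes). The median log2 fold change was 0.82 over the 9 genes and 0.07 over all genes tested in control offspring, and 1.07 and 0.05 in Cd offspring. Srxn1, the gene left, had too low a mean level to be tested. Since these are bulk libraries, a change in the share of a cell type and a change in RNA per cell cannot be told apart. RPKM is relative to the depth of the library, so the total RNA of a cell was not measured.

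The gene for the regulator was lower after stimulation. Nfe2l2 (gene ID 18024, chr2:75675513-75704663 in GRCm38.p6) was at 37.5 and 36.2 RPKM in unstimulated and 23.8 and 23.9 RPKM in stimulated libraries of control offspring, and at 34.2 and 38.0 against 25.1 and 23.8 RPKM in Cd offspring. All 4 unstimulated libraries lay above all 4 stimulated libraries, with no overlap. Limma put the log2 fold change at -0.62 (SE 0.06, limma adjusted p = 8.4e-05) in control offspring. For Cd offspring limma gave -0.56 (SE 0.06, limma adjusted p = 0.000152). The gene thus fell to 0.650 of its unstimulated level in control and 0.679 in Cd offspring, short of a 2-fold change. It rested on 915 to 1925 reads a library.

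Keap1 (gene ID 50868, chr9:21229730-21239332), the sensor that targets Nrf2 for degradation, was at 15.5 and 14.2 RPKM in unstimulated and 13.4 and 13.5 RPKM in stimulated libraries of control offspring, and at 14.3 and 13.2 against 12.3 and 11.9 RPKM in Cd offspring. Within each offspring group the stimulated libraries lay below the unstimulated ones, but the stimulated libraries of control offspring overlapped the unstimulated libraries of Cd offspring. On the log2 scale the change was -0.14 (95% confidence interval -0.31 to 0.03, limma adjusted p = 0.122) in control offspring. It was -0.076 without unstimulated control library 6 and -0.208 without unstimulated control library 7. In Cd offspring it was -0.18 (-0.35 to -0.01, limma adjusted p = 0.0604). Neither met the threshold of 0.05. The call depended on the scaling between libraries: with median-of-ratios scaling limma gave -0.22 (adjusted p = 0.0290) and -0.23 (adjusted p = 0.0247), and with quantile normalization -0.26 (adjusted p = 0.0111) and -0.30 (adjusted p = 0.00581), in control and Cd offspring. Quantile normalization also moved the median log2 fold change over all genes from 0.07 to -0.03 in control and from 0.05 to -0.04 in Cd offspring. In Cd offspring Keap1 was also called lower with voom (adjusted p = 0.0318) and in limma without unstimulated Cd library 7 (-0.24, adjusted p = 0.0384). Over the alternatives tried, limma's adjusted p ranged from 0.00581 upwards to 0.225 in Cd offspring.

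RNA of the genes for glutamate-cysteine ligase was higher after stimulation in both offspring groups. Gclc (gene ID 14629, chr9:77754535-77794489) encodes the catalytic subunit of glutamate-cysteine ligase, the rate-limiting enzyme of glutathione synthesis. It was at 16.3 and 16.1 RPKM in unstimulated and 27.0 and 26.7 RPKM in stimulated libraries of control offspring, and at 17.9 and 16.0 against 28.7 and 27.9 RPKM in Cd offspring. The stimulated and unstimulated libraries did not overlap. The log2 fold change was 0.72 (SE 0.06, limma adjusted p = 4.19e-05) in control and 0.74 (SE 0.06, limma adjusted p = 3.81e-05) in Cd offspring.

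Gclm (gene ID 14630, chr3:122245487-122267215) encodes the modifier subunit of the same enzyme. Its level was 13.0 and 11.9 RPKM in unstimulated and 23.2 and 22.3 RPKM in stimulated libraries of control offspring, and 11.3 and 12.4 against 25.5 and 24.3 RPKM in Cd offspring. The 4 stimulated libraries were all above the 4 unstimulated ones, and those of Cd offspring were the highest. Limma put the log2 fold change at 0.86 (SE 0.07, 1.82-fold, limma adjusted p = 3.44e-05) in control and 1.07 (SE 0.07, 2.09-fold, limma adjusted p = 1.2e-05) in Cd offspring. The 2-fold rule thus called Gclm in Cd offspring and not in control offspring, but the difference between the responses, 0.20 (95% confidence interval -0.04 to 0.45), did not pass (limma adjusted p = 0.536). With quantile normalization the change in Cd offspring was 0.94 and below 2-fold. Gm46822 and Gm6061, which overlap Gclm in the RefSeq annotation, were not among the genes counted.

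Gsr (gene ID 14782, chr8:33653238-33698162), glutathione reductase, returns oxidized glutathione to its reduced form with NADPH. It was at 13.4 and 12.9 RPKM in unstimulated and 22.9 and 23.9 RPKM in stimulated libraries of control offspring, and at 14.0 and 13.7 against 24.9 and 25.3 RPKM in Cd offspring. Stimulated libraries were separate from unstimulated ones. On the log2 scale the change was 0.82 (SE 0.06, limma adjusted p = 9.36e-06) in control and 0.85 (SE 0.06, limma adjusted p = 8.39e-06) in Cd offspring, or 1.77-fold and 1.80-fold.

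Txnrd1 and Prdx1 had larger changes than Gclc, Gclm and Gsr, with small errors. Txnrd1 (gene ID 50493, chr10:82833951-82897724), the cytosolic thioredoxin reductase, was at 20.4 and 20.5 RPKM in unstimulated and 68.1 and 68.3 RPKM in stimulated libraries of control offspring, and at 19.8 and 20.3 against 68.4 and 66.5 RPKM in Cd offspring. The 4 unstimulated libraries lay close together, and so did the 4 stimulated libraries, far above them. The log2 fold change was 1.73 (SE 0.04, 3.33-fold, limma adjusted p = 2.68e-07) in control and 1.75 (SE 0.04, 3.36-fold, limma adjusted p = 2.97e-07) in Cd offspring. Whether reads were counted by strand is not given in the sources used here. Eid3, a gene that overlaps Txnrd1, was at 2.34 to 2.84 RPKM in unstimulated and 4.01 to 4.09 RPKM in stimulated libraries, low beside Txnrd1.

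Prdx1 (gene ID 18477, chr4:116685599-116700000), a peroxiredoxin that reduces hydrogen peroxide with electrons from thioredoxin, was at 72.4 and 74.3 RPKM in unstimulated and 189 and 193 RPKM in stimulated libraries of control offspring. For Cd offspring the values were 64.9 and 72.8 RPKM in unstimulated and 188 and 186 RPKM in stimulated libraries. The stimulated libraries were all higher than the unstimulated ones, with a wide gap. Limma put the log2 fold change at 1.38 (SE 0.06, 2.61-fold, limma adjusted p = 1.35e-06) in control and 1.45 (SE 0.06, 2.72-fold, limma adjusted p = 1.22e-06) in Cd offspring. AV051173, which overlaps Prdx1, had 9 to 19 reads a library.

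Srxn1 (gene ID 76650, chr2:152105524-152111376) encodes sulfiredoxin, which repairs overoxidized peroxiredoxins. Its reads numbered 6 and 4 before and 20 and 24 after stimulation in control offspring, and 6 and 4 before and 22 and 28 after stimulation in Cd offspring. These correspond to 0.129 and 0.0950 RPKM and 0.498 and 0.478 RPKM in control offspring, and to 0.12 and 0.0754 RPKM and 0.387 and 0.425 RPKM in Cd offspring. Stimulated libraries held more reads than unstimulated ones without overlap. The gene missed the filter of 0.5 RPKM and was fitted only when no filter was applied. Limma then gave a log2 fold change of 1.48 (SE 0.22, adjusted p = 0.00133) in control and 1.37 (SE 0.22, adjusted p = 0.00195) in Cd offspring.

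Hmox1 and Nqo1, widely used as readouts of Nrf2 activity, had low levels and wide errors. Hmox1 (gene ID 15368, chr8:75093618-75100593), heme oxygenase, splits heme into biliverdin, iron and carbon monoxide. It was at 1.23 and 1.09 RPKM in unstimulated and 1.92 and 1.30 RPKM in stimulated libraries of control offspring, and at 0.752 and 0.587 against 1.56 and 1.62 RPKM in Cd offspring. The groups did not overlap within either offspring group, but stimulated control library 7 lay close to the unstimulated control libraries. On the log2 scale the change was 0.42 (95% confidence interval -0.12 to 0.95, limma adjusted p = 0.145) in control offspring, with 0.16 (adjusted p = 0.621) without stimulated control library 6 and 0.68 (adjusted p = 0.0516) without stimulated control library 7. For Cd offspring limma gave 1.14 (0.61 to 1.68, 2.21-fold, limma adjusted p = 0.00313). Hmox1 thus passed in Cd offspring and not in control offspring, while the difference between the responses, 0.72 (-0.03 to 1.48), did not pass (limma adjusted p = 0.484). The call in Cd offspring by the 2-fold rule ended in limma without unstimulated Cd library 7 (0.99, adjusted p = 0.0187), without stimulated Cd library 6 (1.17, adjusted p = 0.0177) and without stimulated Cd library 7 (1.12, adjusted p = 0.0215), the range over all alternatives being 0.00194 to 0.0215. It also ended with a pseudocount of 0.5 (0.84) or 1 (0.63) in place of 0.1, where the change fell below 2-fold.

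Nqo1 (gene ID 18104, chr8:107388225-107403205), which reduces quinones with NADH or NADPH, was nearly undetected before stimulation. Its reads numbered 3 and 7 before and 28 and 31 after stimulation in control offspring, and 3 and 10 before and 49 and 31 after stimulation in Cd offspring. In RPKM these were 0.107 and 0.277 against 1.16 and 1.03 in control offspring, and 0.0995 and 0.314 against 1.44 and 0.784 in Cd offspring. All stimulated libraries were above all unstimulated libraries, although the stimulated libraries of Cd offspring lay far apart. The log2 fold change was 2.09 (95% confidence interval 0.97 to 3.21, limma adjusted p = 0.00602) in control and 2.02 (0.90 to 3.14, limma adjusted p = 0.00708) in Cd offspring. The gene passed the filter on its mean through its stimulated libraries, so a higher level in them was partly built into its test.

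The call of Nqo1 by the 2-fold rule was fragile. In control offspring it ended in limma without unstimulated control library 6 (1.66, adjusted p = 0.0369), without stimulated control library 6 (2.01, adjusted p = 0.0340) and without stimulated control library 7 (2.17, adjusted p = 0.0249). In Cd offspring it ended in limma without unstimulated Cd library 6 (1.49, adjusted p = 0.0397), without stimulated Cd library 6 (1.62, adjusted p = 0.0532) and without stimulated Cd library 7 (2.42, adjusted p = 0.0121). It ended there also without stimulated control library 6 or 7 (limma adjusted p = 0.0134 and 0.0132), which enter only the shared estimate of the spread. Without stimulated Cd library 6 the threshold of 0.05 was missed as well. With a pseudocount of 1 the change was 0.82 in control and 0.79 in Cd offspring, below 2-fold. Without a filter limma gave an adjusted p of 0.0103 in control and 0.0118 in Cd offspring, and in Cd offspring the call was also missed in the fit to only the 4 libraries compared (limma adjusted p = 0.0154) and without a trend (limma adjusted p = 0.0108). Over all alternatives limma's adjusted p lay between 0.00197 and 0.0369 in control and between 0.00164 and 0.0532 in Cd offspring.

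**Figure D2:**
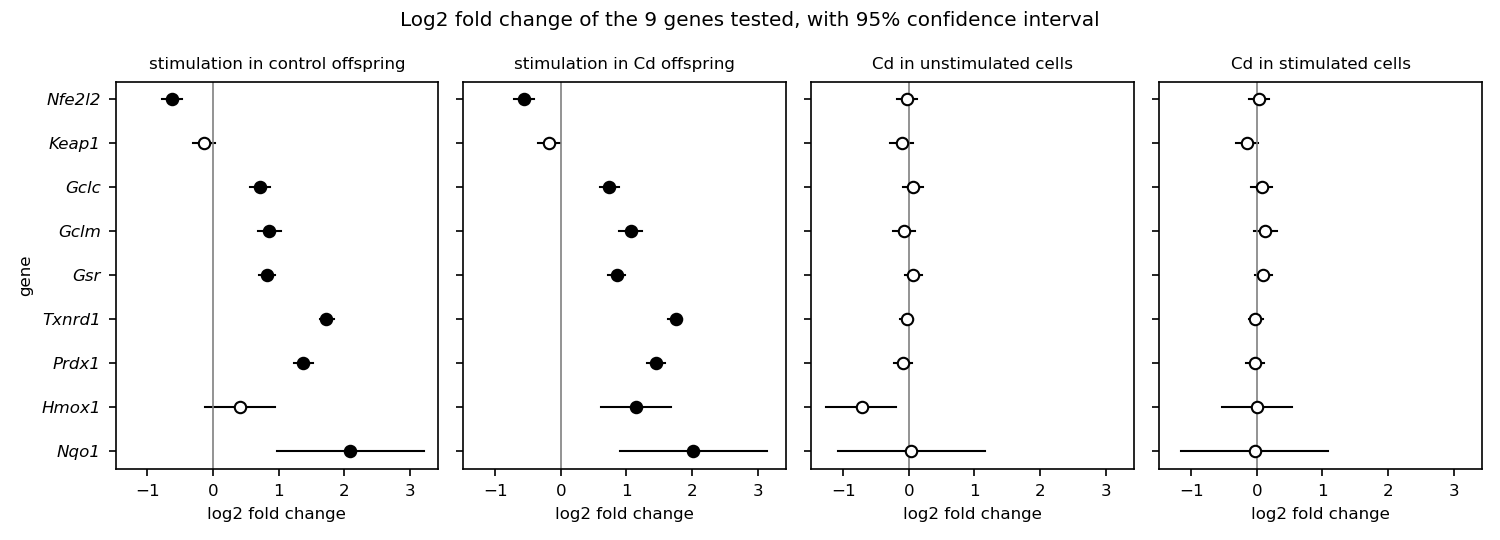
Log2 fold change of RPKM + 0.1 with its 95% confidence interval for the 9 genes tested, in 4 comparisons; filled dots have a limma adjusted p under 0.05. Stimulation moved Nfe2l2 by -0.62 and Txnrd1 by 1.73 in control offspring, whereas none of the 9 dots is filled in the panels for Cd in unstimulated and in stimulated cells.

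The other genes of the pathway were taken from 8 lists that hold 72 genes of the table, 60 of them tested. In control offspring 9 of 60 were higher and 5 of 60 lower by the 2-fold rule (11.5% and 7.17% of all genes), and 31 were higher and 15 lower at a limma adjusted p under 0.05 (36.9% and 27.8% of all genes). In Cd offspring these counts were 12 and 5 (11.4% and 7.24% of all genes), and 31 and 12 (36.5% and 29.4% of all genes). Osgin1, in these counts of lower genes, passed the filter only through its unstimulated libraries. With quantile normalization 25 were higher and 15 lower in control and 29 and 14 in Cd offspring, while over all genes the counts turned from 4655 higher and 3510 lower to 3974 and 4225 in control offspring and from 4597 and 3708 to 4029 and 4390 in Cd offspring. The shares of all genes in the main fit at an adjusted p under 0.05, given above, also stand beside the counts of each list below. Whether a list differed from all genes was not tested. The median log2 fold change of the 60 was 0.22 in control and 0.39 in Cd offspring. The difference in response between the offspring groups was called in limma for 0 of the 60 genes, with 6 at an unadjusted p under 0.05 (1332 of all 12605 genes) and 0 with voom, so a gene called in only 1 offspring group is not shown to respond differently. Genes outside the rule for naming are named only where they fill a small count, and were so chosen after their values were seen.

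Among the 11 regulators, limma called 4 higher in control offspring, namely Nfe2l1, Bach2, Mafg and Rbx1, 3 lower, namely Maff, Mafk and Sqstm1, and 4 not at all. Mafg, a small Maf protein that pairs with Nrf2 on DNA, was at 5.53 ± 0.384 RPKM in unstimulated and 23.4 ± 0.376 RPKM in stimulated cells of control offspring (SD, n = 2). Its log2 fold change was 2.06 (SE 0.07, limma adjusted p = 5.9e-07) in control and 2.16 (SE 0.07, limma adjusted p = 5.84e-07) in Cd offspring. Maff, another small Maf protein, moved the other way, from 25.8 ± 3.05 to 8.25 ± 0.269 RPKM in control offspring. Its log2 fold change was -1.63 (SE 0.13, limma adjusted p = 2.69e-05) in control and -1.40 (SE 0.13, limma adjusted p = 6.13e-05) in Cd offspring. The same 4 genes were called higher in Cd offspring, and Nfe2l3, Maff, Mafk and Cul3 lower.

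Nfe2l3, a relative of Nrf2, was at 2.40 and 4.75 RPKM in unstimulated and 2.33 and 2.30 RPKM in stimulated libraries of control offspring, and at 4.74 and 7.06 against 2.40 and 1.79 RPKM in Cd offspring. The unstimulated libraries varied widely within each group, and in control offspring the lower of them lay beside the stimulated ones. Limma called it lower in Cd offspring, at -1.44 (SE 0.32, adjusted p = 0.00550), and gave -0.53 (SE 0.32, adjusted p = 0.187) in control offspring. The difference between the responses was -0.91 (95% confidence interval -1.98 to 0.16, limma adjusted p = 0.527). In limma its 2-fold call in Cd offspring ended without unstimulated Cd library 7 (-1.16, adjusted p = 0.0362), stimulated Cd library 6 (-1.64, adjusted p = 0.0127) or stimulated Cd library 7 (-1.24, adjusted p = 0.0371), and narrowly without stimulated control library 6 (adjusted p = 0.0104) or 7 (adjusted p = 0.0102), without a filter (adjusted p = 0.0118) or without a trend (adjusted p = 0.0130). In control offspring it was called lower at the threshold of 0.05 without unstimulated control library 6 (-1.01, limma adjusted p = 0.0197).

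Sqstm1 and Cul3 were the most abundant regulators. Sqstm1, an autophagy adaptor that binds Keap1, was at 126 to 132 RPKM in unstimulated and 104 to 114 RPKM in stimulated libraries of control offspring. Its change of -0.24 (SE 0.08, limma adjusted p = 0.0307) lost the call in limma without unstimulated control library 6 (adjusted p = 0.127) or 7 (adjusted p = 0.0648) or stimulated control library 6 (adjusted p = 0.175), or without a trend (adjusted p = 0.0643). In Cd offspring its change was -0.12 (limma adjusted p = 0.238), called lower only without unstimulated Cd library 7 (-0.22, limma adjusted p = 0.03). Cul3, the scaffold of the ubiquitin ligase that Keap1 serves, had a change of -0.07 (limma adjusted p = 0.369) in control offspring. In Cd offspring Cul3 was called lower at -0.20 (limma adjusted p = 0.0329), a call lost without unstimulated Cd library 7 (-0.13, adjusted p = 0.152) or stimulated Cd library 7 (-0.15, adjusted p = 0.176), in the fit to only the 4 libraries compared (adjusted p = 0.0519) and without a trend (adjusted p = 0.0696).

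Of 6 genes of glutathione synthesis, cystine uptake and glutathione breakdown, 4 were tested and limma called all 4, Gss, Slc3a2, Ggct and Chac2, higher in control offspring. Gss, Slc3a2 and Ggct were also called in Cd offspring, where Chac2 had a change of 0.52 (limma adjusted p = 0.109). Slc3a2, the heavy chain of the cystine and large neutral amino acid transporters, was at 39.7 RPKM in both unstimulated libraries and at 50.4 and 53.2 RPKM in the stimulated libraries of control offspring. Its log2 fold change was 0.38 (SE 0.08, limma adjusted p = 0.00373) there and 0.48 (SE 0.08, limma adjusted p = 0.00114) in Cd offspring. With quantile normalization the change in control offspring was 0.214. The 2 genes not tested, Slc7a11 and Chac1, did not exceed 0.222 and 0.3 RPKM in any library. Gss, which completes glutathione, changed by 0.31 (SE 0.11, limma adjusted p = 0.0402) in control and 0.32 (SE 0.11, limma adjusted p = 0.0326) in Cd offspring. The call in control offspring was lost in limma without unstimulated control library 7 (0.20, adjusted p = 0.214), stimulated control library 6 (adjusted p = 0.0922) or 7 (adjusted p = 0.143) or stimulated Cd library 6 (adjusted p = 0.0625) or 7 (adjusted p = 0.0627). In Cd offspring it was lost without unstimulated Cd library 7 (0.19, limma adjusted p = 0.160) or stimulated Cd library 6 or 7 (limma adjusted p = 0.103 and 0.107). Scaling also ended it: median-of-ratios scaling gave 0.23 in control and 0.28 in Cd offspring (limma adjusted p = 0.0923 and 0.0519), and quantile normalization gave 0.19 and 0.20 (limma adjusted p = 0.143 and 0.128). It was further missed in limma in control offspring without a filter (adjusted p = 0.0596) or a trend (adjusted p = 0.0580), and in Cd offspring in the fit to only the 4 libraries compared (adjusted p = 0.0516).

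Genes that use glutathione were called in both directions. Of 20 genes, 15 were tested, of which limma called 6 higher and 3 lower, Gpx4, Gstk1 and Mgst2, in control offspring (36.9% and 27.8% of all genes). In Cd offspring it called 7 higher and 1 lower, Mgst2 (36.5% and 29.4% of all genes). Gsto1, a glutathione transferase of the omega class, was at 5.78 and 4.80 RPKM in unstimulated and 27.9 and 29.0 RPKM in stimulated libraries of control offspring. Its log2 fold change was 2.41 (SE 0.11, limma adjusted p = 1.9e-06) in control and 2.45 (SE 0.11, limma adjusted p = 1.89e-06) in Cd offspring. Abcc1, which exports glutathione conjugates, changed by 1.33 (SE 0.06, limma adjusted p = 1.16e-06) in control and 1.23 (SE 0.06, limma adjusted p = 1.74e-06) in Cd offspring. Mgst2, a microsomal glutathione transferase, was at 43.2 and 36.1 RPKM in unstimulated and 18.5 and 15.3 RPKM in stimulated libraries of control offspring, a change of -1.23 (SE 0.11, limma adjusted p = 4.71e-05). In Cd offspring Mgst2 changed by -0.88 (SE 0.11, limma adjusted p = 0.000284), less than 2-fold, and the difference between the responses was 0.35 (limma adjusted p = 0.494). With quantile normalization the change in Cd offspring was -1.03 and past 2-fold.

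By mean level over all libraries, Gpx1 and Gstp1 were the most abundant users of glutathione. Gpx1, a glutathione peroxidase, was at 97.0 to 105 RPKM in unstimulated and 107 and 120 RPKM in stimulated libraries of control offspring, a change of 0.17 (limma adjusted p = 0.168). In Cd offspring its change was 0.23 (limma adjusted p = 0.0761), called higher with voom (adjusted p = 0.0280) and in limma without unstimulated Cd library 6 (0.37, adjusted p = 0.00856). Gstp1, a transferase of the pi class, had a change of 0.01 (limma adjusted p = 0.871) in control and was called higher in Cd offspring at 0.37 (limma adjusted p = 0.00201), with a difference between the responses of 0.36 (limma adjusted p = 0.264). Its value in control offspring changed sign with the scaling between libraries, and without unstimulated control library 6 (-0.011) or stimulated control library 7 (-0.056). Its reads are uncertain, since the near copies Gstp-ps, at 32.8 to 39.3 RPKM, and Gstp3, at 27.3 to 50.7 RPKM, were counted beside it and reads could be split between them.

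Of the 11 thioredoxin and peroxiredoxin genes tested besides Txnrd1 and Prdx1, limma called 9 higher, 1 lower (Txnip) and left 1 (Prdx5) uncalled, in control and in Cd offspring, and the median log2 fold change was 0.94 and 1.0. Of all genes tested, 36.9% were called higher and 27.8% lower in control offspring, with a median of 0.07. In Cd offspring these were 36.5%, 29.4% and 0.05. Txn1, thioredoxin itself, the substrate of Txnrd1, was at 39.1 and 35.7 RPKM in unstimulated and 204 and 204 RPKM in stimulated libraries of control offspring, and at 33.4 and 33.5 against 202 and 204 RPKM in Cd offspring. Stimulated libraries reached a level above that of Prdx1. Its log2 fold change was 2.45 (SE 0.05, limma adjusted p = 1.87e-07) in control and 2.60 (SE 0.05, limma adjusted p = 1.42e-07) in Cd offspring. Txnrd3, another thioredoxin reductase, went from 1.53 and 1.34 to 12.9 and 12.6 RPKM in control offspring, a change of 3.07 (SE 0.11, limma adjusted p = 7.12e-07). In Cd offspring it changed by 3.09 (SE 0.11, limma adjusted p = 7.95e-07).

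Txnip, the protein that binds and inhibits thioredoxin, was the gene of this list called lower. It was at 312 and 304 RPKM in unstimulated and 72.0 and 69.3 RPKM in stimulated libraries of control offspring, and at 257 and 264 against 72.1 and 80.6 RPKM in Cd offspring. Before stimulation it was thus above Txn1, and after stimulation below it, in both offspring groups. Limma put the log2 fold change at -2.12 (SE 0.06, limma adjusted p = 3.64e-07) in control and -1.77 (SE 0.06, limma adjusted p = 6.61e-07) in Cd offspring. Gm15441, which overlaps Txnip, was at 0.123 to 1.17 RPKM.

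Of the genes that remove superoxide and hydrogen peroxide, limma called Sod1 and Sod2 higher and Cat lower in both offspring groups. Sod1, the cytosolic superoxide dismutase, was at 148 to 160 RPKM in unstimulated and 195 to 205 RPKM in stimulated libraries of control offspring, with a change of 0.38 (SE 0.06, limma adjusted p = 0.00129). In Cd offspring Sod1 changed by 0.62 (SE 0.06, limma adjusted p = 8.6e-05). Cat, catalase, changed by -0.47 (SE 0.06, limma adjusted p = 0.000287) in control and -0.55 (SE 0.06, limma adjusted p = 0.000122) in Cd offspring.

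Around heme, iron and quinones the calls were mixed. Of 7 genes limma called Hmox2 and Blvra higher in both offspring groups, and Fth1, Fech and Nqo2 lower in control and Fth1 and Nqo2 lower in Cd offspring. Fth1, the ferritin heavy chain and the most abundant gene of the 8 lists by mean level, was at 523 and 496 RPKM in unstimulated and 290 and 310 RPKM in stimulated libraries of control offspring, and at 470 and 442 against 299 and 312 RPKM in Cd offspring. Its unstimulated libraries lay above all stimulated ones. On the log2 scale the change was -0.76 (SE 0.06, limma adjusted p = 2.55e-05) in control and -0.57 (SE 0.06, limma adjusted p = 0.000117) in Cd offspring. Nqo2, the relative of Nqo1, moved opposite to it, from 3.40 and 3.31 to 1.10 and 1.12 RPKM in control offspring. Its change was -1.51 (SE 0.17, limma adjusted p = 0.000158) in control and -1.74 (SE 0.17, limma adjusted p = 7.6e-05) in Cd offspring. Serpinb6a, which overlaps Nqo2, also had lower values, 9.31 to 11.8 RPKM in unstimulated and 4.85 to 5.65 RPKM in stimulated libraries, and reads of the overlap cannot be assigned to 1 of them.

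Ftl1, the ferritin light chain, was not called, with changes of -0.23 (limma adjusted p = 0.171) in control and 0.33 (limma adjusted p = 0.0653) in Cd offspring. Its unstimulated Cd libraries, at 108 and 80.3 RPKM, lay below the unstimulated control libraries, at 126 and 133 RPKM. In control offspring it was called lower in limma without unstimulated Cd library 6 or 7 (adjusted p = 0.0419 for each) and in the fit to only the 4 libraries compared (adjusted p = 0.0494). In Cd offspring it was called higher with voom (adjusted p = 0.0167) and in limma without unstimulated Cd library 6 (0.54, adjusted p = 0.00358). The difference between the responses was 0.56 (limma adjusted p = 0.372).

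NADPH feeds both Gsr and Txnrd1, and 3 of the 5 genes tested for its supply, G6pdx, Pgd and Tkt, were called higher by limma in both offspring groups. Tkt, transketolase of the pentose phosphate pathway, was at 48.7 and 47.9 RPKM in unstimulated and 133 and 137 RPKM in stimulated libraries of control offspring. Its log2 fold change was 1.48 (SE 0.05, limma adjusted p = 5.33e-07) in control and 1.61 (SE 0.05, limma adjusted p = 4.47e-07) in Cd offspring. Taldo1, transaldolase of the same pathway, lay at 84.8 to 92.6 RPKM in all 8 libraries, with a change of 0.00 (95% confidence interval -0.13 to 0.14, limma adjusted p = 0.949) in control offspring, and a value below 0 without unstimulated control library 7 (-0.059) or stimulated control library 7 (-0.029). Idh1 was called lower in control offspring, at -0.47 (limma adjusted p = 0.0144), and had -0.29 (limma adjusted p = 0.0851) in Cd offspring.

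Of 8 other known Nrf2 targets, 4 were tested, of which limma called Slc48a1 higher and Cbr1, Ephx1 and Osgin1 lower in both offspring groups. Osgin1, an oxidative stress induced growth inhibitor, fell from 1.98 and 2.25 to 0.262 and 0.315 RPKM in control offspring, a change of -2.51 (SE 0.21, limma adjusted p = 2.69e-05). In Cd offspring its change was -2.37 (SE 0.21, limma adjusted p = 3.78e-05). It passed the filter on its mean only through its unstimulated libraries, so a lower level after stimulation was partly built into its test. With a pseudocount of 1 the changes were -1.27 and -1.25. Ephx1, the microsomal epoxide hydrolase, changed by -0.70 (SE 0.07, limma adjusted p = 7.57e-05) in control and -0.52 (SE 0.07, limma adjusted p = 0.000416) in Cd offspring. Cbr1, a carbonyl reductase, changed by -0.95 (SE 0.08, limma adjusted p = 2.79e-05) in control and -0.78 (SE 0.08, limma adjusted p = 8.17e-05) in Cd offspring, and was past 2-fold in control offspring with median-of-ratios scaling (-1.03) and quantile normalization (-1.10). The genes not tested, Cbr3, Akr1b8, Pir and Aldh3a1, were at 0 to 0.12 RPKM.

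**Figure D3:**
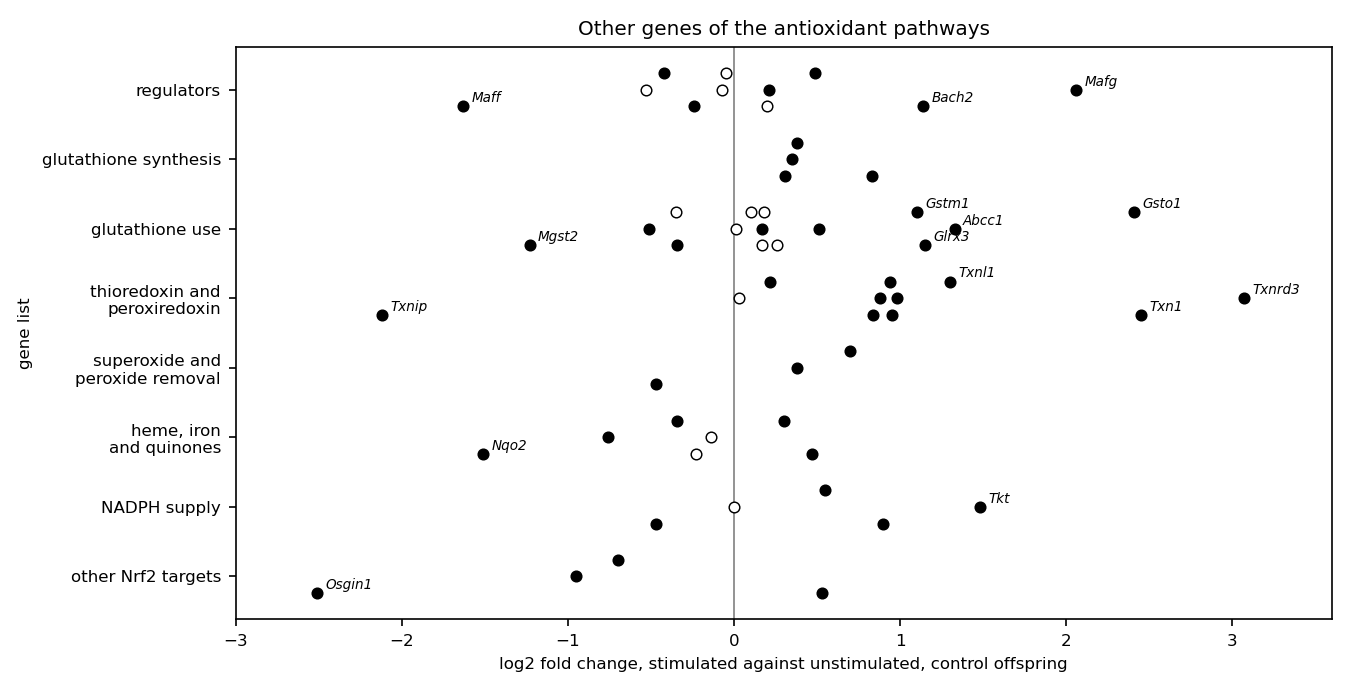
Log2 fold change of RPKM + 0.1 after stimulation in control offspring for the 60 other pathway genes tested, by list; each dot is a gene, filled where the limma adjusted p is under 0.05, with names for changes beyond 1. Txnrd3 lies at 3.07 and Txnip at -2.12, while Osgin1, at -2.51, passed the filter only through its unstimulated libraries and lies at -1.27 with a pseudocount of 1.

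Parental Cd was then compared in unstimulated cells, which bears on whether the exposure before birth left a difference in resting T cells at 8 weeks. Of the 9 genes, limma called 0 higher (0.135% of all genes tested) and 0 lower (0.762% of all genes), and voom called 0 in either direction. At an unadjusted p under 0.05 there was 1, against 1748 of all 12605 genes, namely Hmox1, whose level was 0.752 and 0.587 RPKM in Cd offspring against 1.23 and 1.09 RPKM in control offspring. These libraries did not overlap, and they held 23 and 19 against 35 and 28 reads. The log2 fold change was -0.72 (95% confidence interval -1.26 to -0.19, limma adjusted p = 0.247), which did not pass. It was -0.51 with a pseudocount of 0.5 and -0.37 with a pseudocount of 1. The other 8 tested had changes between -0.11, for Keap1, and 0.07, for Gsr. Nfe2l2 had a change of -0.03 (95% confidence interval -0.18 to 0.12, limma adjusted p = 0.858), and Txnrd1 -0.03 (-0.13 to 0.07, limma adjusted p = 0.797). Gclc had 0.06 (-0.09 to 0.21), Gclm -0.07 (-0.24 to 0.10) and Prdx1 -0.09 (-0.23 to 0.05). Leaving out 1 library, Gclm ranged from -0.139 to -0.002, Prdx1 from -0.177 to -0.011 and Keap1 from -0.177 to -0.045. Txnrd1 ranged from -0.047 to -0.012 and Gsr from 0.044 to 0.103. The libraries of Txnrd1 (lower) and Gsr (higher in Cd offspring) did not overlap between offspring groups either. The share of all genes that separate in this way between 2 and 2 libraries was not counted, and separation alone was not taken as a difference. Nqo1 had 0.04 with an interval of -1.08 to 1.16, past a 2-fold change in either direction. Srxn1 had a change of -0.11 (SE 0.22, limma adjusted p = 0.896) in the fit without a filter. Single libraries turned some of these directions: without unstimulated Cd library 6 Nfe2l2 had a change of 0.044 and Gclc of -0.020. Nqo1 had -0.391 without unstimulated control library 6 and -0.487 without unstimulated Cd library 7. The median was -0.03 over the 9 genes and 0.01 over all genes tested.

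Of the 60 other pathway genes, limma called 0 higher and 0 lower for Cd in unstimulated cells, with 13 at an unadjusted p under 0.05 (1748 of all 12605 genes), all of them lower in Cd offspring, and a lowest adjusted p of 0.166. Over all genes tested, limma called 17 higher and 96 lower at an adjusted p under 0.05, a stricter threshold. The 1748 genes were not split by direction, so whether the lean of the 13 is particular to the pathway genes was not tested. Among the 13 were Txnip, at -0.24 (SE 0.06, limma adjusted p = 0.166), Gstp1, at -0.27 (SE 0.07, limma adjusted p = 0.166), Sod1, at -0.21 (SE 0.06, limma adjusted p = 0.232), Txn1, at -0.16 (SE 0.05, limma adjusted p = 0.265), and Ftl1, at -0.47 (SE 0.14, limma adjusted p = 0.210). Voom called 1, Txnip (-0.24, adjusted p = 0.0478). Without unstimulated Cd library 6, limma called 1, Ftl1 (-0.69, adjusted p = 0.0476). The median log2 fold change was -0.07 over the 60 and 0.01 over all genes tested. The sum of the activation genes was also lower in these Cd libraries, at 169 and 153 against 204 and 183 RPKM. Cd69 had the largest part in this, at 116 and 106 against 156 and 136 RPKM. Log2 fold changes were -0.39 for Cd69, 0.14 for Il2ra, 0.09 for Myc, -0.06 for Irf4 and -0.08 for Tnfrsf4. Il2 had -0.86, at no more than 0.703 RPKM in unstimulated libraries. A link was not tested.

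In stimulated cells the question was whether Cd and control offspring differed after activation. Limma called 0 of 9 higher (0% of all genes tested) and 0 of 9 lower (0%), with 0 of 9 at an unadjusted p under 0.05 (414 of all 12605 genes) and 0 called with voom. The changes lay between -0.15, for Keap1, and 0.13, for Gclm, with a median of 0.00 over the 9 genes and -0.01 over all genes. Keap1 was at 12.3 and 11.9 RPKM in Cd and 13.4 and 13.5 RPKM in control offspring, without overlap, a change of -0.15 (95% confidence interval -0.32 to 0.02, limma adjusted p = 1). Gclc, Gclm and Gsr, higher in Cd offspring, and Prdx1 and Srxn1, lower, did not overlap either. With 2 libraries a group, such separation was not taken as a difference, and its share over all genes was not counted. Hmox1 had a change of 0.00 (-0.53 to 0.54, limma adjusted p = 1), and its stimulated libraries overlapped. It turned to -0.258 without stimulated control library 7 and to -0.022 without stimulated Cd library 7, as Nqo1 did to 0.048 without stimulated control library 6 and to 0.366 without stimulated Cd library 7. Nfe2l2 turned to -0.004 without stimulated Cd library 6 and Txnrd1 to 0.005 without stimulated Cd library 7. Txnrd1 had -0.02 (-0.12 to 0.09), Prdx1 -0.03 (-0.17 to 0.11), Nfe2l2 0.03, Gclc 0.08 (-0.08 to 0.23), Gsr 0.10 (-0.03 to 0.23) and Nqo1 -0.03 (-1.15 to 1.09). Srxn1 was at 0.387 and 0.425 RPKM in Cd and 0.498 and 0.478 RPKM in control offspring, and in the fit without a filter its change was -0.22 (SE 0.22, limma adjusted p = 1). None of the 60 other pathway genes had an unadjusted p under 0.05 (414 of all 12605 genes), and limma and voom called 0 of them in either direction.

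The last comparison asked whether the response to stimulation differed between Cd and control offspring. It uses all 8 libraries and so shares them with the comparisons above. Of the 9 genes, limma called 0 with a higher response in Cd offspring (0.301% of all genes tested) and 0 with a lower one (0.0555%), with 0 of 9 at an unadjusted p under 0.05 and 0 called with voom. Hmox1 had the largest difference, 0.72, and was closest to the threshold (unadjusted p = 0.0581 in limma). It was 0.46 without stimulated control library 7 and 0.99 without stimulated control library 6, and 0.37 with a pseudocount of 1 and 0.83 with voom. The responses of Txnrd1 differed by 0.01 (95% confidence interval -0.13 to 0.16), those of Gclc by 0.02 (-0.20 to 0.23), those of Gsr by 0.03 (-0.16 to 0.21) and those of Nfe2l2 by 0.06 (-0.15 to 0.27). The differences of Gclm (0.20), Nqo1 (-0.07), Prdx1 (0.06) and Keap1 (-0.04) did not pass. For Srxn1 the difference was -0.11 (SE 0.30, limma adjusted p = 0.917) in the fit without a filter. Leaving out 1 library turned several of the differences. Without unstimulated Cd library 6 the differences were -0.010 for Nfe2l2, -0.003 for Txnrd1, -0.019 for Prdx1 and 0.021 for Keap1, and without unstimulated Cd library 7 they were -0.065 for Gclc and 0.454 for Nqo1. Without stimulated Cd library 6 Gclc had -0.005 and Txnrd1 -0.006, and without stimulated Cd library 7 Nqo1 had 0.326. Among control libraries, leaving out unstimulated library 6 gave -0.004 for Gsr and 0.358 for Nqo1, unstimulated library 7 gave 0.029 for Keap1, and stimulated library 6 gave -0.004 for Gsr and 0.008 for Nqo1. Of the other pathway genes, 6 of 60 had an unadjusted p under 0.05, against 1332 of all 12605 genes. The lowest limma adjusted p was 0.214, for Txnip, whose difference was 0.35 (SE 0.09).

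Genes with the most similar pattern over the 8 libraries were looked up for 3 of the 10, by the root mean square difference of centred log2 values. For Nfe2l2 the closest were Stk4 (0.019), Ikzf1 (0.029) and Ddx6 (0.033). Stk4, a kinase, was at 104 to 107 RPKM in stimulated and 152 to 165 RPKM in unstimulated libraries, and Ikzf1 encodes the lymphoid transcription factor Ikaros. For Prdx1, the most abundant, the closest were Lman1 (0.035), Nifk (0.041) and Sfxn1 (0.043), with log2 fold changes of 1.37, 1.44 and 1.45 in control offspring. Lman1 encodes a cargo receptor for secreted proteins and Sfxn1 a mitochondrial serine transporter. For Nqo1, the most changed with the pseudocount of 0.1 but below Txnrd1 with 0.5 or 1 and without unstimulated control library 6, no gene came as close: Gm6579 (0.311), Tssk5 (0.320) and Mrto4-ps1 (0.322) were the nearest, on few reads for the first pair.

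Promoters were searched for the core of the antioxidant response element, the DNA element that Nrf2 and small Maf proteins bind, spelled TGACNNNGC, on both strands of the 250 bases before each start. RefSeq promoter sequences for GRCm38.p6 matched 7 of the 10 genes, with 9 promoters in all. Hmox1, Gclc and Gsr are missing. The core was found in 4 of the 9, those of Nfe2l2, Gclm, Prdx1 and 1 of 3 of Txnrd1, and not in those of Keap1, Nqo1 and Srxn1. It was found in 3338 of 32851 promoters of all genes (10.2%) and in 12 of 87 promoters of the other pathway genes (13.8%). Nqo1 and Srxn1, without the core, were also higher after stimulation. Gclm, Prdx1 and Txnrd1 rose and Nfe2l2 fell, and all 4 stretches with the core are shown. They read 5′ to 3′ on the strand of the gene, with the core in capitals and up to 20 bases on each side. That of Nfe2l2 lies at chr2:75704875-75704913 on the minus strand, with the core on the strand of the gene. Those of Gclm at chr3:122245403-122245451, Prdx1 at chr4:116685446-116685494 and Txnrd1 at chr10:82859094-82859142 lie on the plus strand, with the core on the opposite strand and so shown reversed and complemented. All lie before an annotated start, and those of Gclm and Txnrd1 belong to starts inside the span of the gene given above, at 122245557 and 82859206.
Nfe2l2: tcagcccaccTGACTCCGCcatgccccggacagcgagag
Gclm: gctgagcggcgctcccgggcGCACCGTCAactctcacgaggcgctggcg
Prdx1: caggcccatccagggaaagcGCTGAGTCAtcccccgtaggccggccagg
Txnrd1: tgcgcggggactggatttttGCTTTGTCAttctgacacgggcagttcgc
Counted to these annotated starts, the core lies 231 bases before the start of Nfe2l2, 125 before that of Gclm, 124 before that of Prdx1 and 83 before that of Txnrd1. A match is a description of the letters, not a site or a cause, and a promoter without one only lacks these letters in this window.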

How the data were processed

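The 8 RNA libraries of splenic CD4+ T cells were grouped by the sample labels, 2 in each of 4 groups. The authors used subread for alignment to mm10 and featureCounts for counting on RefSeq, without versions given, and neither the strand setting nor the step to RPKM is stated. The deposited values are on a log2 scale, log2(RPKM + 1) + 0.0001. The test had been planned for RPKM, so the values were back-transformed. Of 27179 genes, 8206 were at 0 in all libraries, 847 had no symbol and 25275 matched RefSeq (GRCm38.p6) by gene ID. Whole reads, lengths and totals were worked out from the spacing of low values for 17792 of 17794 genes above 0 in at least 2 libraries, a step tested on simulated data, as was the fit. Reads were taken as whole within a tolerance of 0.0001 reads. The totals, given per library in the report with a median of 19434588, set the precision of low values.

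With limma 3.58.1 in R 4.3.3, a mean of log2(RPKM + 0.1) was fitted for each group over all 8 libraries, with moderated errors and a trend. Testing covered the 12605 genes averaging 0.5 RPKM or more, with Benjamini-Hochberg adjustment over them. Tables and figures were made with Python 3.11.15, numpy 2.4.6, pandas 2.3.3 and matplotlib 3.10.9. Alternatives were pseudocounts of 0.5 and 1, no filter, a filter at 1 RPKM, quantile normalization, median-of-ratios scaling, a fit to only the 4 libraries compared, a replicate block in 2 forms, no trend, limma's voom on the recovered reads (12604 genes) and leaving out each library in turn.

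The 10 genes and the lists were chosen with earlier results of these data known. All 10 are named in every comparison, Srxn1 from the fit without a filter. Of the other pathway genes, the text names in each comparison up to 6 with the largest rise and up to 6 with the largest fall among those called with a mean of at least 1 RPKM, and the 2 most abundant of each list. Genes that behaved alike were the 3 tested genes nearest to Nfe2l2, to the most abundant and to the most changed gene. The experiments of the study other than RNA sequencing were not analysed.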

Additional observations from a re-analysis of the deposited data

How the results depend on the processing

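By the 2-fold rule, Nqo1 lost its call under several alternatives in control offspring, as did Nqo1, Hmox1 and Gclm under 1 or more in Cd offspring. The tallies here use only the threshold of an adjusted p under 0.05. Under the alternatives, log2 fold changes of the 9 genes tested after stimulation kept direction and side of this threshold in 168 results in control offspring. There 2 became called, and in Cd offspring 165 kept direction and side, 1 lost its call and 4 gained one. For Cd in unstimulated cells, Cd in stimulated cells and the difference in response, 156, 153 and 146 kept them and 5, 8 and 15 reversed, all from values near 0 or with wide intervals. Of the other pathway genes named, 430 results were kept in control offspring, 15 lost a call, 3 gained one and 8 reversed. The cause was not tested. When 1 library of a group is left out, the other is assumed to vary like the other groups.

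Of the 9 genes, 2 in place of 1 were lower in control offspring under median-of-ratios scaling and quantile normalization, and 2 in place of 1 in Cd offspring under both and under voom (leaving out 1 library, 1 to 2), Keap1 being added. Genes more than 2-fold higher in Cd offspring were 3 in place of 5 with a pseudocount of 1, and 3 to 5 leaving out 1 library. Other pathway genes lower with Cd in unstimulated cells were 1 in place of 0 with voom, and 0 to 1 leaving out 1 library.

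Under median-of-ratios scaling and quantile normalization, the change after stimulation in control offspring was -0.062 and -0.153 for Gstp1 and -0.071 and -0.073 for Taldo1, and leaving out 1 library it ranged from -0.056 to 0.084 and from -0.059 to 0.068. Hmox1 changed with Cd in stimulated cells by -0.001 with a pseudocount of 0.5 and by -0.003 with a pseudocount of 1. Under quantile normalization Nqo1 changed by -0.129 with Cd in unstimulated cells, with a difference in response of 0.115.

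Leaving out 1 library, the change with Cd in unstimulated cells ranged from -0.104 to 0.044 for Nfe2l2, from -0.487 to 0.565 for Nqo1 and from -0.020 to 0.140 for Gclc. With Cd in stimulated cells it ranged from -0.004 to 0.072 for Nfe2l2, from -0.258 to 0.265 for Hmox1, from -0.432 to 0.366 for Nqo1 and from -0.036 to 0.005 for Txnrd1. The difference in response ranged from -0.010 to 0.138 for Nfe2l2, from -0.103 to 0.029 for Keap1, from -0.598 to 0.454 for Nqo1, from -0.065 to 0.095 for Gclc, from -0.006 to 0.035 for Txnrd1, from -0.004 to 0.055 for Gsr and from -0.019 to 0.147 for Prdx1.

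The labels give libraries only a replicate number and do not say whether unstimulated and stimulated libraries of a number come from the same animal. Deviations of same-numbered libraries correlated at 0.064 and 0.009 between unstimulated and stimulated cells of control and Cd offspring. Between Cd and control offspring they correlated at 0.012 and -0.041 in unstimulated and stimulated cells. With a replicate block, genes more than 2-fold higher were 4 in place of 5 in Cd offspring, and with a block of exposure and number 2 in place of 3 in control offspring, Nqo1 being the gene lost (limma adjusted p = 0.0113 and 0.0160). The latter block also took Nqo1 past 0.01 in Cd offspring (limma adjusted p = 0.0180) and Sqstm1 (0.0521) and Gss (0.0527) past 0.05 in control offspring, and added Ftl1 in Cd offspring (limma adjusted p = 0.0190). With the replicate block, all genes called by the 2-fold rule were 2325 in place of 2353 in control and 2313 in place of 2348 in Cd offspring, those called for Cd in unstimulated cells 76 in place of 113, for Cd in stimulated cells 0 in place of 0 and for the difference 36 in place of 45. Without a trend, 14 genes were called for Cd in unstimulated cells, 2 in stimulated cells and 4 for the difference, and voom called 211 for Cd in unstimulated cells and 112 for the difference. Without a filter these counts were 65 and 28, and in the fit to only the 4 libraries compared 52 were called for Cd in unstimulated cells. Leaving out 1 library gave 19 (without unstimulated control library 6) to 105 (without unstimulated Cd library 7) for Cd in unstimulated cells and 2 (without stimulated Cd library 7) to 63 (without unstimulated Cd library 7) for the difference, with 3 without stimulated control library 6. Depth limits Srxn1, Nqo1 and Hmox1, which had 4 to 28, 3 to 49 and 19 to 65 reads a library.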

Other observations

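Metallothionein genes, which bind Cd, were near 0 in all groups: Mt1 was at 0.103 and 0.113 RPKM in unstimulated and 0.237 and 0.190 RPKM in stimulated libraries of control offspring, and at 0 and 0.0898 against 0.252 and 0.362 RPKM in Cd offspring, while Mt2 did not exceed 0.212 RPKM. Slc30a1, a zinc exporter, fell after stimulation from 11 and 9.90 to 5.13 and 5.50 RPKM in control offspring and from 9.80 and 9.20 to 5.39 and 4.98 RPKM in Cd offspring, with Cd and control values -0.13 apart on the log2 scale in unstimulated cells (limma adjusted p = 0.536). Mtf1, another gene of the metal response, moved the other way after stimulation. Its log2 fold change was 0.50 (limma adjusted p = 0.000818) in control and 0.34 (limma adjusted p = 0.00611) in Cd offspring.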
